A study of Mus musculus with 10 samples.

Results

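Acetyl groups on histone tails are placed by acetyltransferases (writers), removed by deacetylases (erasers) and bound by bromodomain proteins (readers). The 39 genes described here code for these proteins in the mouse. They were taken from 23420 gene rows by their symbols: Hdac, Sirt, Kat, Ing and Brd genes with a number, Brdt, and Ep300, Crebbp, Hat1, Naa60, Ncoa1 and Ncoa3. Hdac1, Hdac2, Kat5, Brd7 and Brd9, which work in remodelling or variant-histone complexes, were left out. The set held 12 writers, 5 ING subunits that guide writers and erasers to chromatin, 16 erasers and 6 readers, spread over 16 chromosomes.

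Stranded polyA RNA libraries were made from spermatogenic cells of P18 mouse testes. At postnatal day 18 the first wave of germ cells is in meiotic prophase. There were 5 libraries labelled Ino80cKO, in which Stra8-Cre deleted Ino80 in the testis, and 5 labelled Ino80WT, all from mice of mixed background. INO80 is an ATP-driven chromatin remodeller, and the Stra8 promoter drives Cre in male germ cells from the spermatogonial stages on. Cells came from enzyme-digested tubules passed through a mesh, with no sort described. The labels do not say whether the Ino80WT mice carried Cre or floxed alleles. Since the labels name no animals, p-values measure the spread among these libraries, which may be technical.

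In male germ cells acetylation has roles that few other tissues share. Histone H4 becomes heavily acetylated in spermatids before protamines replace histones, and BRDT, the bromodomain protein of the testis, binds the acetylated tails there. In spermatocytes BRDT is known to help switch on meiotic genes and switch off genes of earlier stages. Acetylation elsewhere depends on p300 and CBP at enhancers and on the MYST and GCN5 families within large complexes, while zinc-dependent HDACs and NAD-dependent sirtuins remove the mark. Several sirtuins and HDACs act mainly on proteins outside the nucleus.

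Libraries held 16750609 to 23700094 gene counts, so 3 counts correspond to 0.117 to 0.189 CPM (counts of a gene scaled to the TMM-adjusted library size); this limit covers counting error only. The gene count of Ino80 averaged 96.1 ± 1.37 CPM in Ino80cKO and 94.96 ± 12.6 CPM in Ino80WT (SD, n = 5 each). The log2 fold change was 0.02 (adjusted p = 0.889). The sources do not say which exons are deleted and the files give no counts by exon, so this value does not check the labels, on which all directions rest. The 6 germ cell markers were all present, with sums of 2831 to 3542 CPM in Ino80cKO and 4029.8 to 5370.2 CPM in Ino80WT, and 5 of them were lower. All 14 pachytene and later spermatocyte markers were lower, and their summed level ranged from 1264 to 2188 CPM in Ino80cKO against 3609 to 6354 CPM in Ino80WT. Of 10 macrophage and leukocyte markers 7 were higher, with sums of 65.4 to 118 CPM in Ino80cKO and 27.6 to 47.7 CPM in Ino80WT. Of 9 Sertoli markers 4 were higher, with sums of 1460 to 2339 CPM in Ino80cKO and 1104 to 1762 CPM in Ino80WT. Of 5 Leydig markers tested 3 were higher, with sums of 48.1 to 108 CPM in Ino80cKO and 26.4 to 71.5 CPM in Ino80WT. Of 8 peritubular and endothelial markers 4 were higher, with sums of 999 to 1464 CPM in Ino80cKO and 836 to 1047 CPM in Ino80WT. Of 12 spermatogonial markers 3 were higher and 2 lower. Of 9 round and elongating spermatid markers 3 were tested and 1, Acr, was lower. Their sums were 18.3 to 25.3 CPM in Ino80cKO and 34.5 to 71.0 CPM in Ino80WT. From the same list, Tnp2, Prm1 and Prm2 had 0 counts in each library. The part of these shifts in the results that follow was not tested, and in bulk RNA fewer cells of a type and less RNA per cell cannot be told apart.

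All 39 genes had enough counts to be tested. Brdt fell most in Ino80cKO, 2.02-fold; Sirt5, Sirt2, Kat8 and Kat7 fell by smaller amounts, and Hdac8, Kat2b and Hdac10 rose. By the quasi-likelihood test of edgeR, adjusted over 15265 genes by the Benjamini-Hochberg method, 9 of the 39 were higher, 9 were lower and 21 did not pass. That is 23.1% in each direction, beside 18.3% of all tested genes called higher and 27.6% called lower, or 45.9% in either direction. These shares lie near the background, so the counts are no result about the set as a whole. The median log2 fold change (Ino80cKO over Ino80WT) was 0.08 for the 39 genes and 0.02 for all tested genes. Brdt was the only one of the 39 called at a change of at least 2-fold, beside 8.46% of all tested genes. Scaled by library totals instead of TMM, the medians became 0.26 for the set and 0.19 for all tested genes, 21 members were called higher and 7 lower, and 34.9% of the calls over all genes were lower, against 60.2% with TMM. That scaling shifts all genes upward alike, so it turned the sign of the 8 members just below 0: Brd2, Brd3, Ing1, Ing2, Ing5, Kat2a, Sirt1 and Sirt4, none of which had passed. The CPM of the groups did not overlap for 15 genes, 38.5%, beside 32% of all tested genes. Without overlap, 7 of the 39 were lower and 8 of the 39 higher. Over all 15265 tested genes these were 3358 (22%) lower and 1521 (9.96%) higher. The share higher was above that of all tested genes, and the difference was not tested.

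**Figure D1:**
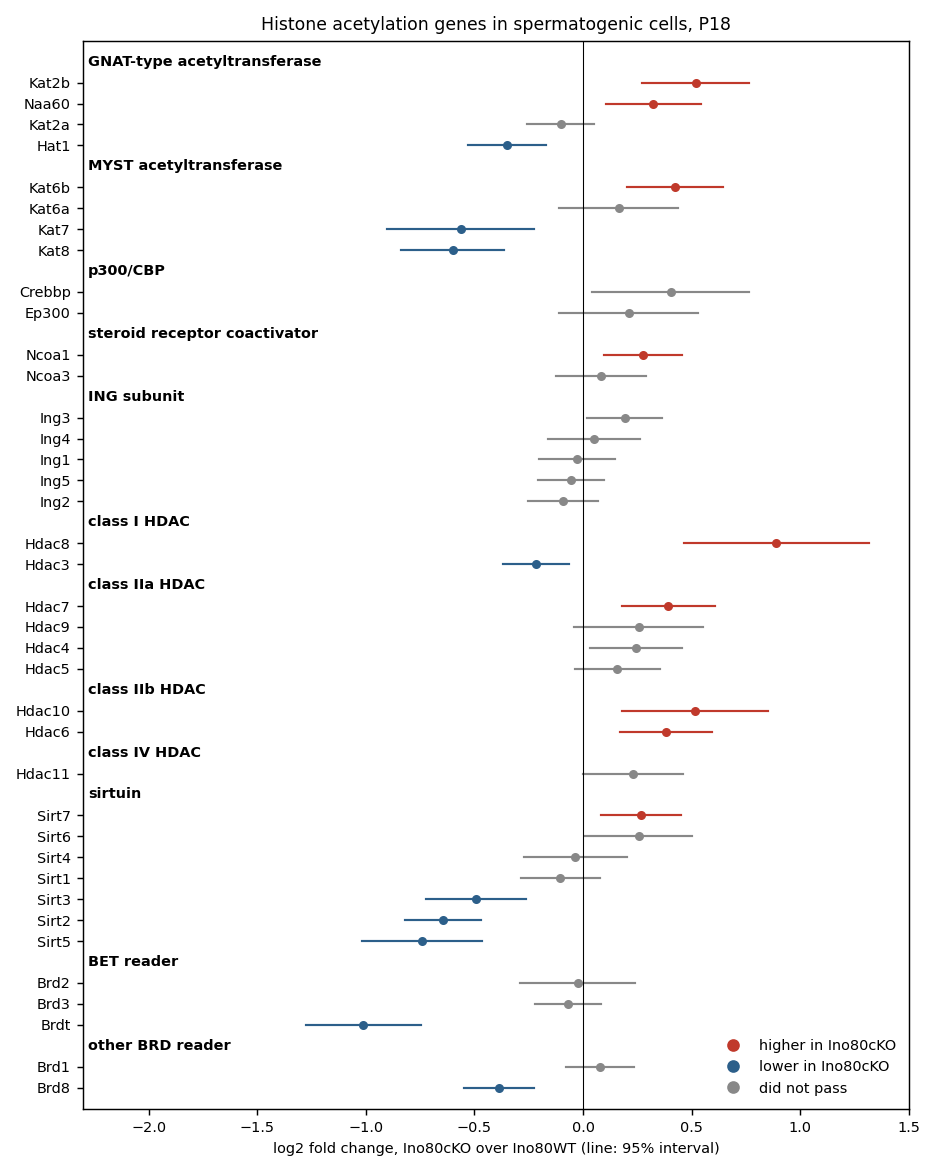
Log2 fold change, Ino80cKO over Ino80WT, of 38 of the 39 genes (point) with its 95% interval (line), grouped by protein class; red marks genes higher in Ino80cKO, blue lower, grey not passing. The 18 genes that passed split into 9 and 9. Brdt lies lowest at -1.01 and Hdac8 highest at 0.89. All 5 ING genes are grey, where 45.9% of all tested genes passed in either direction.

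Promoters of 6 genes with large or clear changes are given so that the sequence can be read beside the values. RefSeq (GRCm38.p6, the same build as mm10) gave a start for 33 of the 39 genes, and each sequence is the 250 bases before the most upstream start in the RefSeq table, 5′ to 3′ on the gene's strand. GENCODE M21 places some starts further upstream, so part of a window can lie within the gene as GENCODE draws it: 78 bases for Brdt, 146 for Sirt5, 0 for Sirt2, 223 for Hdac8, 197 for Kat2b and all 250 for Kat6b. Capitals mark the CCAAT box (CCAAT), an E-box (CACGTG), one arm of the cAMP response element (TGACG) and the GC box (GGGCGG), or their complements on the other strand; copies may overlap, as CCAATTGG in Hdac8 holds CCAAT on each strand. The first 3 belong to genes that fell and the other 3 to genes that rose. Brdt (chr5:107330944-107331193, plus strand) has 1 E-box and 1 CCAAT box, Sirt5 lies at chr13:43365285-43365534 (plus), Sirt2 at chr7:28766502-28766751 (plus), Hdac8 at chrX:102505159-102505408 (minus), Kat2b at chr17:53566721-53566970 (plus) and Kat6b at chr14:21499520-21499769 (plus).
Brdt: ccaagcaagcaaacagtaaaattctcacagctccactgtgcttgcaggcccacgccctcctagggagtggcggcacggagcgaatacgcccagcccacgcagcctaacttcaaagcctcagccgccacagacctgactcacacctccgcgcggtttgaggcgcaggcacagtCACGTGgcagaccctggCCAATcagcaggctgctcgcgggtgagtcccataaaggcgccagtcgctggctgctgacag
Sirt5: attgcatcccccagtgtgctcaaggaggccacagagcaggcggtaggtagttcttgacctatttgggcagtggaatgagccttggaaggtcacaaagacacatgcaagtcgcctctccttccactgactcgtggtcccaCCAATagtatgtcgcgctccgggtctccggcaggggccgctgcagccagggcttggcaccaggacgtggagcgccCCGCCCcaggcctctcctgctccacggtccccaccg
Sirt2: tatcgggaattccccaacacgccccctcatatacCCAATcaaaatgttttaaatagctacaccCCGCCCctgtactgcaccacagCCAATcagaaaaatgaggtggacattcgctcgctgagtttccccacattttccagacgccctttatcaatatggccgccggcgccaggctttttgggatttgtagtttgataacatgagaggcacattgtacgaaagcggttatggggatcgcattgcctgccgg
Hdac8: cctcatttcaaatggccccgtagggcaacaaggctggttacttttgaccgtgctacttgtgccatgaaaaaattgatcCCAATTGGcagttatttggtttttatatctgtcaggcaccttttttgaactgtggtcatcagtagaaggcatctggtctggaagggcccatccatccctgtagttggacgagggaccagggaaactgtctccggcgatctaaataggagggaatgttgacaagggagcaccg
Kat2b: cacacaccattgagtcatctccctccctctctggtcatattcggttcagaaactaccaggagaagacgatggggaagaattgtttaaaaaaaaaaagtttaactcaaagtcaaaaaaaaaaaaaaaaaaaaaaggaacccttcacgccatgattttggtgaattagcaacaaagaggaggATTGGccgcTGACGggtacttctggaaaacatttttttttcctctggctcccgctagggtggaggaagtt
Kat6b: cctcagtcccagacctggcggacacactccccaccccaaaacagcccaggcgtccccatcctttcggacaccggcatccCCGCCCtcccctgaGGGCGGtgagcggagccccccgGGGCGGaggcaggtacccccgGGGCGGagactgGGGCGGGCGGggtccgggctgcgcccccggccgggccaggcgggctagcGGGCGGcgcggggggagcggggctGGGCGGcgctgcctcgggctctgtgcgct

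CCAAT was found in 6 of the 7 promoters of genes that fell, 4 of the 8 of genes that rose and 6 of the 18 of genes that did not pass, against 33.9% of 32851 promoters of the same length. CACGTG was found in 2 of 7, 0 of 8 and 1 of 18 in the same order, against 6.02% of all. TGACG was found in 3 of 7, 2 of 8 and 8 of 18, against 17.8%. GGGCGG was found in 4 of 7, 5 of 8 and 13 of 18, against 32.7%. The whole element TGACGTCA was in 2 of the 33 promoters, against 1.55% of all, and both genes were among those that did not pass. AACGG was in 7 of 33, AACTG in 9 of 33 and GTTGCC in 7 of 33, against 14.5%, 39.1% and 10.4% of all. The promoters were GC-rich, with a median of 62.4% GC and 17 CpG, beside 52.4% and 6 over all promoters. Kat6b was the extreme among those printed, with 8 GGGCGG and 27 CpG, while Hdac8 and Kat2b had 6 CpG each. The 32851 promoters were not limited to the 15265 genes tested here, while all 39 genes of the set were tested. These matches describe letters within one window and were not tested.

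Among the readers, Brdt fell to 158, 162, 134, 181 and 187 CPM in Ino80cKO libraries 1 to 5, against 291, 325, 406, 271 and 365 CPM in Ino80WT libraries 1 to 5. Each Ino80cKO library was below each Ino80WT library, with Ino80cKO 3 lowest and Ino80WT 3 highest. The means were 164 ± 21.0 and 332 ± 54.9 CPM (SD, n = 5 each), a log2 fold change of -1.01 ± 0.12 (SE; edgeR quasi-likelihood, adjusted p = 8.53e-05), or 2.02-fold lower. Brdt lies at chr5:107331116-107387061 on the plus strand in GENCODE M21.

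Brd2 and Brd3, BET readers of many tissues, did not pass. Brd2 had 510.2 ± 63.9 CPM in Ino80cKO and 519 ± 94.9 CPM in Ino80WT (log2 fold change -0.02 ± 0.12, adjusted p = 0.884). Brd3 had 178 ± 6.03 CPM in Ino80cKO and 187 ± 15.4 CPM in Ino80WT (-0.07 ± 0.07, adjusted p = 0.428). Of the summed level of Brdt, Brd2 and Brd3 per exon length, Brdt made up 26.4 ± 2.41% in Ino80cKO and 41.4 ± 2.63% in Ino80WT. The shares in single libraries ran from 22.4 to 28.6% in Ino80cKO and from 38.0 to 44.9% in Ino80WT. The ratio of Brdt to Brd2 in CPM, not divided by exon length, was 0.324 ± 0.0403 in Ino80cKO and 0.643 ± 0.0735 in Ino80WT. This pair was picked after its values were seen and was not tested.

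Outside the BET family, Brd8, a subunit of the TIP60 acetyltransferase complex, fell to 138 ± 7.21 CPM in Ino80cKO, against 180.2 ± 15.6 CPM in Ino80WT (log2 fold change -0.39 ± 0.07, adjusted p = 0.00128). Its groups did not overlap. Brd1, the scaffold of HBO1 and MOZ complexes, did not pass (0.08 ± 0.07, adjusted p = 0.389). In sum 2 of the 6 readers fell, and the other 4 did not pass, where 27.6% of all tested genes were lower.

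**Figure D2:**
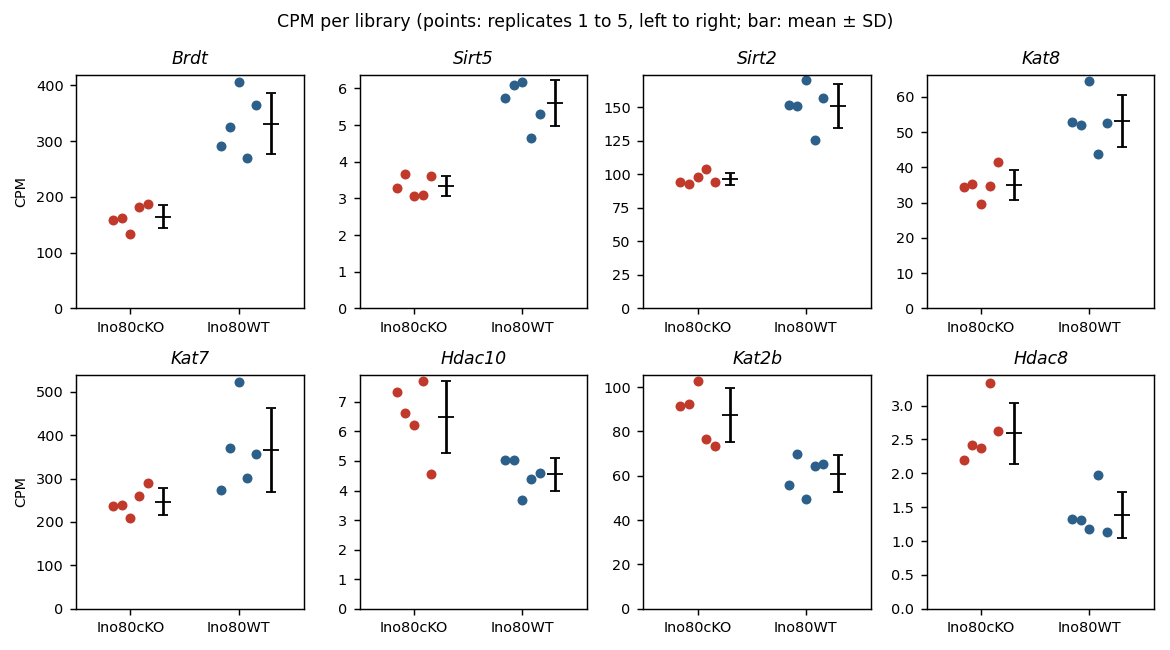
CPM in each library (points, replicates 1 to 5 from left to right in each group) with the mean ± SD (bar), for the 8 genes that passed with a log2 fold change of at least 0.5 in size. Brdt, Sirt5, Sirt2, Kat8, Hdac8 and Kat2b do not overlap between Ino80cKO and Ino80WT, while Kat7 and Hdac10 do.

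Within the MYST acetyltransferases, which work in multi-subunit complexes, members moved in opposite directions. Kat8, also called MOF, the catalytic subunit of the MSL and NSL complexes that acetylates histone H4, fell to 34.4, 35.2, 29.6, 34.8 and 41.4 CPM in Ino80cKO 1 to 5, against 52.9, 51.9, 64.5, 43.7 and 52.6 CPM in Ino80WT 1 to 5. The groups did not overlap, and Ino80cKO 3 and Ino80WT 3 again held the extremes. The log2 fold change was -0.60 ± 0.11 (adjusted p = 0.000941), 1.51-fold lower.

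Kat7, or HBO1, which acetylates H3 and H4 with BRPF or JADE partners, had 238, 238, 209, 261 and 290.0 CPM in Ino80cKO, against 273, 370.3, 523, 301 and 358 CPM in Ino80WT, libraries in the same order. Ino80cKO 5 was above Ino80WT 1, so the groups overlapped, and Ino80WT 3 stood well above its group. The log2 fold change was -0.56 ± 0.16 (adjusted p = 0.0116). Without Ino80WT 3 and Ino80cKO 3 together it was -0.32 (adjusted p = 0.0329).

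Kat6b, or MORF, a partner of BRPF1 and ING5, rose: it ranged from 116 to 137 CPM in Ino80cKO and from 69.1 to 103 CPM in Ino80WT (log2 fold change 0.42 ± 0.10, adjusted p = 0.00502). Its paralog Kat6a, or MOZ, did not pass, with 219 to 238 CPM in Ino80cKO and 132 to 231 CPM in Ino80WT (0.16 ± 0.13, adjusted p = 0.307). MYST shares were taken over the summed level of Kat6a, Kat6b, Kat7 and Kat8, without Kat5. Per exon length, Kat7 made up 49.9 ± 2.66% of this sum in Ino80cKO and 58.3 ± 3.65% in Ino80WT. Kat6b made up 8.35 ± 0.97% in Ino80cKO and 4.995 ± 0.74% in Ino80WT. In both groups Kat7 was the most abundant of the 4 per exon length.

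Of the GCN5 pair, Kat2b passed and Kat2a did not, and the difference between them was not tested. Kat2b, or PCAF, rose to 91.7, 92.2, 103, 76.6 and 73.6 CPM in Ino80cKO 1 to 5, against 55.8, 69.6, 49.5, 64.6 and 65.5 CPM in Ino80WT 1 to 5. The lowest Ino80cKO library was above the highest Ino80WT library, with a log2 fold change of 0.52 ± 0.11 (adjusted p = 0.00299). Kat2a, or GCN5, which takes the same place in the SAGA and ATAC complexes, had 69.4 ± 2.56 CPM in Ino80cKO and 74.5 ± 6.27 CPM in Ino80WT and did not pass (-0.10 ± 0.07, adjusted p = 0.252). The ratio of Kat2b to Kat2a in CPM, not divided by exon length, was 1.27 ± 0.21 in Ino80cKO and 0.826 ± 0.147 in Ino80WT. This pair was also picked after its values were seen and was not tested.

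Hat1, which acetylates newly made H4 before it is laid down on DNA, fell. It had 128, 118, 107, 112 and 128 CPM in Ino80cKO, against 176, 138, 139, 153 and 151 CPM in Ino80WT. No library overlapped, and the log2 fold change was -0.35 ± 0.08 (adjusted p = 0.00479); scaled by library totals it was -0.18 and did not pass (adjusted p = 0.12). Naa60, a Golgi acetyltransferase that modifies protein N-termini and has also been assigned activity on H4, rose to 30.9 ± 1.70 CPM in Ino80cKO, against 24.7 ± 3.56 CPM in Ino80WT (0.32 ± 0.10, adjusted p = 0.0201). On 573 exon bases, 15.02% of its exons, Naa60 lies across from 1700037C18Rik on the other strand. Its exons also overlap those of Zfp597 on that strand, by a length not given here. Whether counting used strand is not stated by the sources. The first of these neighbours fell by 0.88 and the second by 0.33 on the log2 scale. Without Ino80WT 5, Naa60 did not pass (adjusted p = 0.0526).

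The coactivators p300 and CBP, which acetylate enhancer histones, did not pass. Ep300 had 151, 164, 197, 178 and 176 CPM in Ino80cKO, against 92.5, 158, 172, 175 and 152 CPM in Ino80WT (log2 fold change 0.21 ± 0.15, adjusted p = 0.258). Crebbp had 119.6, 136, 172, 139 and 153 CPM in Ino80cKO, against 63.7, 118, 128, 126 and 108 CPM in Ino80WT (0.40 ± 0.17, adjusted p = 0.0635). Ino80WT 1 was far below the other libraries for both genes. Without it Crebbp passed at a log2 fold change of 0.28 (adjusted p = 0.035), as it did without Ino80WT 3 (0.47, adjusted p = 0.0494). Crebbp passed in 7 of the 20 alternatives. Some of these kept all libraries, such as DESeq2 (adjusted p = 0.0299) and the edgeR fit with a replicate block (adjusted p = 0.0204). Without Ino80WT 1 the log2 fold change of Ep300 was 0.10 (adjusted p = 0.312).

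That library was low for long transcripts in general. Over the 11 genes with at least 8000 exon bases, the median log2 ratio of Ino80WT 1 to the other Ino80WT libraries was -0.30, against 0.03 over the 28 genes of 2000 to 8000 bases; over all genes with a log2 CPM above 1 it was -0.29 (2306 genes) and -0.003 (8596 genes) in the same length classes. Kat6a at 132 CPM and Kat6b at 69.1 CPM were also lowest in that library. Without it Kat6b still passed, at a log2 fold change of 0.36 (adjusted p = 0.00103), while Kat6a was at 0.06 and Ncoa3 at 0.03, neither passing. The part of transcript length in the results was not tested.

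Ncoa1 and Ncoa3 are coactivators of steroid receptors. Ncoa1 rose to 94.9 ± 5.41 CPM in Ino80cKO, against 78.3 ± 8.53 CPM in Ino80WT (0.28 ± 0.08, adjusted p = 0.0167). Ncoa3 did not pass (0.08 ± 0.10, adjusted p = 0.486). In all, 4 of the 12 writers rose, 3 fell and 5 did not pass, that is 33.3% and 25% beside 18.3% and 27.6% of all tested genes.

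**Figure D3:**
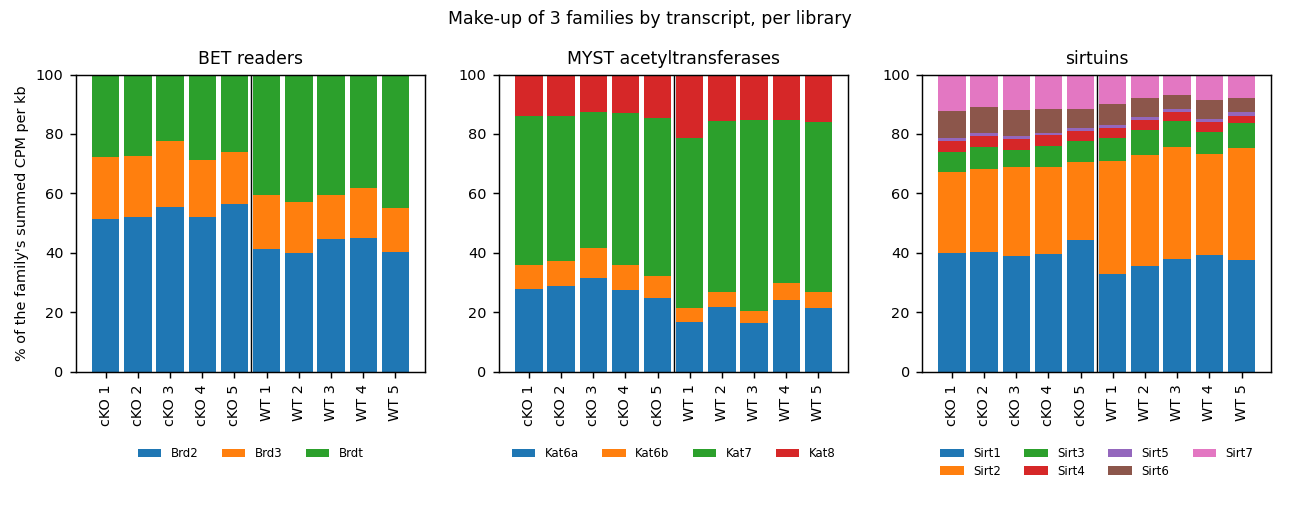
Share of each transcript in its family's summed CPM per kilobase of exon, in each library. Bars show Ino80cKO 1 to 5 left of the line and Ino80WT 1 to 5 right of it. The families are 3 BET readers, the MYST acetyltransferases without Kat5, and the sirtuins. Brdt takes 22.4 to 28.6% of the BET bar in Ino80cKO and 38.0 to 44.9% in Ino80WT, and Sirt2 26.4 to 30.1% of the sirtuin bar in Ino80cKO and 33.9 to 38.0% in Ino80WT.

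None of the 5 ING genes passed edgeR's quasi-likelihood test at an adjusted p below 0.05. Over all tested genes 45.9% were called in either direction, and with so few genes the ING count is a description only. Among them 1, Ing3, had an unadjusted p below 0.05 (0.0339), and DESeq2 called that gene (adjusted p = 0.0361). ING proteins read methylated H3 and bring acetylases or deacetylases to it. Ing2, a subunit of the SIN3 deacetylase complex that mouse spermatogenesis is known to need, had 34.7, 38.5, 38.6, 37.8 and 38.1 CPM in Ino80cKO, against 45.6, 37.0, 39.2, 38.8 and 39.5 CPM in Ino80WT. The groups overlapped, and the 95% interval of the fold (log2 fold change -0.09, adjusted p = 0.319) ran from 0.84 to 1.05. Ing3, of the TIP60 complex, had the largest difference of the 5, with a log2 fold change of 0.19 ± 0.08 (adjusted p = 0.0677) and no overlap between groups; without Ino80WT 1 it passed (adjusted p = 0.0467). Ing1, Ing4 and Ing5 lay between -0.05 and 0.05.

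Among the zinc-dependent deacetylases, 4 of 9 rose and 1 fell, beside 18.3% of all tested genes higher and 27.6% lower; with so few genes a class count is a description only. Hdac8, a class I enzyme that deacetylates the cohesin subunit SMC3, rose to 2.19, 2.42, 2.37, 3.34 and 2.62 CPM in Ino80cKO 1 to 5, against 1.32, 1.31, 1.18, 1.97 and 1.13 CPM in Ino80WT 1 to 5. Its level was the lowest of the 39 genes per exon length in both groups, the groups did not overlap, and the log2 fold change was 0.89 ± 0.20 (adjusted p = 0.00313), 1.85-fold higher. Hdac3, the class I enzyme of the NCoR and SMRT corepressors, was called lower at 113 ± 7.28 CPM in Ino80cKO and 131 ± 8.67 CPM in Ino80WT. Its log2 fold change of -0.22 ± 0.07 (adjusted p = 0.0244) no longer passed without Ino80cKO 2, Ino80cKO 3, Ino80cKO 5 or Ino80WT 1, one at a time, with adjusted p of 0.0527 to 0.0657. It was -0.13 (adjusted p = 0.175) without Ino80WT 1 and 2 together and -0.04 (adjusted p = 0.655) when scaled by library totals.

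Class IIb enzymes both rose. Hdac6, which deacetylates tubulin in the cytoplasm, was the most abundant deacetylase of the set per exon length and ranged from 314 to 422 CPM in Ino80cKO and from 237 to 317 CPM in Ino80WT (log2 fold change 0.38 ± 0.10, adjusted p = 0.0075). Hdac10, known as a polyamine deacetylase, had 7.32, 6.61, 6.22, 7.71 and 4.55 CPM in Ino80cKO, against 5.04, 5.04, 3.68, 4.39 and 4.59 CPM in Ino80WT. It passed at 0.52 ± 0.16 (adjusted p = 0.0172), although Ino80cKO 5 lay within the Ino80WT libraries.

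Of the class IIa enzymes, which bind MEF2 factors, Hdac7 rose to 12.7 ± 0.881 CPM in Ino80cKO, against 9.72 ± 0.882 CPM in Ino80WT (log2 fold change 0.39 ± 0.10, adjusted p = 0.00665). Hdac4, Hdac5 and Hdac9 did not pass, with log2 fold changes of 0.16 to 0.26. Hdac4 had no overlap between groups, at an edgeR adjusted p of 0.057. It passed in 7 of the 20 alternatives, among them DESeq2 with all libraries (adjusted p = 0.022) and edgeR without Ino80WT 1 (adjusted p = 0.0486). Hdac11, the class IV enzyme, was at 0.23 ± 0.11 and did not pass (adjusted p = 0.0924). It passed in 4 of the 20 alternatives, among them without Ino80cKO 4 (adjusted p = 0.0443).

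Hdac6 and Hdac8 were the X-linked genes of the set, and both rose. On the X 296 of 599 tested genes were called higher, 49.4%, against 17% of 14592 autosomal genes. Of the 37 autosomal genes of the set, 7 rose, 18.9%, close to the autosomal share.

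Of the 7 sirtuins 3 fell and 1 rose, beside 27.6% and 18.3% of all tested genes. Sirt2, a mainly cytoplasmic enzyme that deacetylates tubulin and, in mitosis, histone H4, fell to 94.6, 92.9, 97.9, 104 and 94.1 CPM in Ino80cKO 1 to 5, against 152, 151, 171, 126 and 157 CPM in Ino80WT 1 to 5. The groups did not overlap, and the Ino80cKO libraries lay close together. The log2 fold change was -0.64 ± 0.08 (adjusted p = 9.91e-05), 1.56-fold lower. Per exon length Sirt2 made up 28.2 ± 1.54% of sirtuin transcripts in Ino80cKO and 36.9 ± 1.72% in Ino80WT, and Sirt1 40.6 ± 2.13% in Ino80cKO and 36.7 ± 2.44% in Ino80WT.

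The mitochondrial members did not all move alike. Sirt5, which removes succinyl and malonyl groups, fell to 3.29, 3.66, 3.06, 3.09 and 3.61 CPM in Ino80cKO, against 5.73, 6.09, 6.18, 4.66 and 5.30 CPM in Ino80WT, without overlap (log2 fold change -0.74 ± 0.13, adjusted p = 0.000622). Sirt3, the main deacetylase of the mitochondrial matrix, fell to 28.0 ± 3.12 CPM in Ino80cKO, against 39.3 ± 4.997 CPM in Ino80WT (-0.49 ± 0.11, adjusted p = 0.00277). Sirt4 did not pass (-0.04 ± 0.11, adjusted p = 0.805).

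Of the nuclear members, Sirt1 had 147, 143, 134, 148 and 167 CPM in Ino80cKO, against 139.5, 153, 181, 154 and 166 CPM in Ino80WT, with overlapping groups (log2 fold change -0.10 ± 0.08, adjusted p = 0.321). Sirt7, the nucleolar sirtuin, rose to 40.9 ± 2.45 CPM in Ino80cKO, against 34.0 ± 3.68 CPM in Ino80WT (0.27 ± 0.08, adjusted p = 0.0216); it did not pass without Ino80cKO 1 (adjusted p = 0.0559) or without Ino80WT 2 (adjusted p = 0.0504). Sirt6, a chromatin enzyme linked to telomeres, was at 0.26 ± 0.11 and did not pass by edgeR (adjusted p = 0.0799). It passed in 6 of the 20 alternatives. Among them were DESeq2 with all libraries (adjusted p = 0.0297) and edgeR without Ino80cKO 5 (adjusted p = 0.036) or without Ino80WT 1 (adjusted p = 0.0258).

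Per exon length, levels spanned a wide range. Brd2 was the most abundant, at 65.2 CPM per kilobase in Ino80cKO and 66.3 in Ino80WT, and Hdac8 the least, at 0.535 in Ino80cKO and 0.286 in Ino80WT. Brdt stood at 32.2 CPM per kilobase in Ino80cKO and 64.8 in Ino80WT, rank 5 and rank 3 of the 39. Exon lengths are from GENCODE M21, whichever isoforms these cells use.

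**Figure D4:**
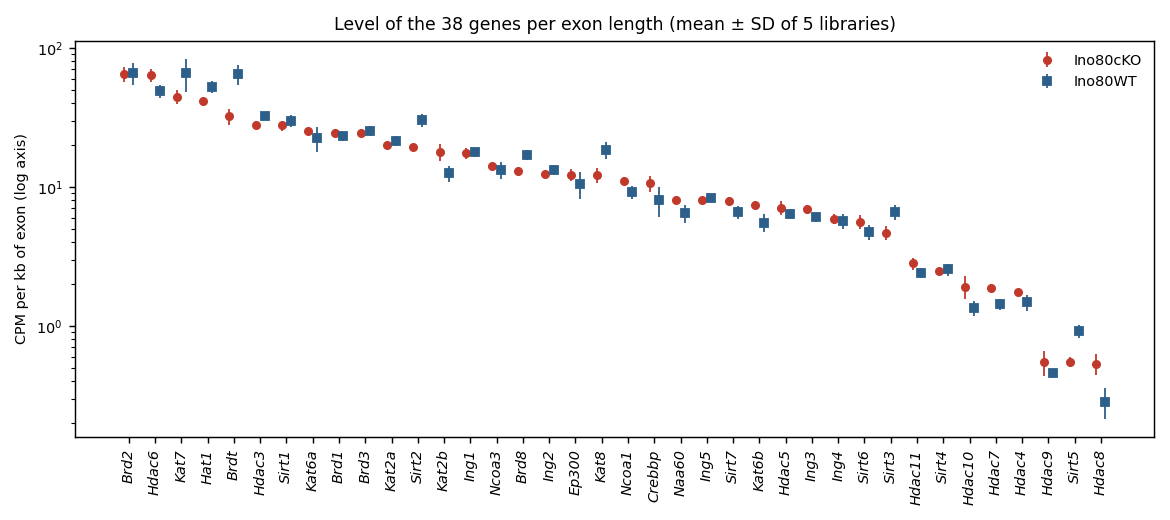
Mean CPM per kilobase of exon (log axis) of 38 of the 39 genes in Ino80cKO (red circles) and Ino80WT (blue squares), with the SD of 5 libraries, ordered by the Ino80cKO level. Brdt is at 32.2 in Ino80cKO and 64.8 in Ino80WT, the widest gap in fold among the readers.

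Single libraries recurred at the ends of the ranges. Of the 9 genes that fell, 6 were lowest in Ino80cKO 3 and 6 highest in Ino80WT 3, 5 of them both. Of the 9 that rose, 5 were highest in Ino80cKO 3 and 6 lowest in Ino80WT 3. By mean log2 CPM over the list, the pachytene markers and the spermatid markers were also lowest in Ino80cKO 3 and highest in Ino80WT 3. The Sertoli list was highest in Ino80cKO 3 and lowest in Ino80WT 3. Lowest in Ino80WT 3 but highest in Ino80cKO 1 were the Leydig, macrophage and leukocyte, and peritubular and endothelial lists. Single markers within a list could differ. With Ino80cKO 3 and Ino80WT 3 both left out, the members called were 8 higher and 9 lower, against 9 and 9 with all libraries. Only Naa60 lost its edgeR call among the 18 (adjusted p = 0.062). That alternative was chosen after the data were seen.

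**Figure D5:**
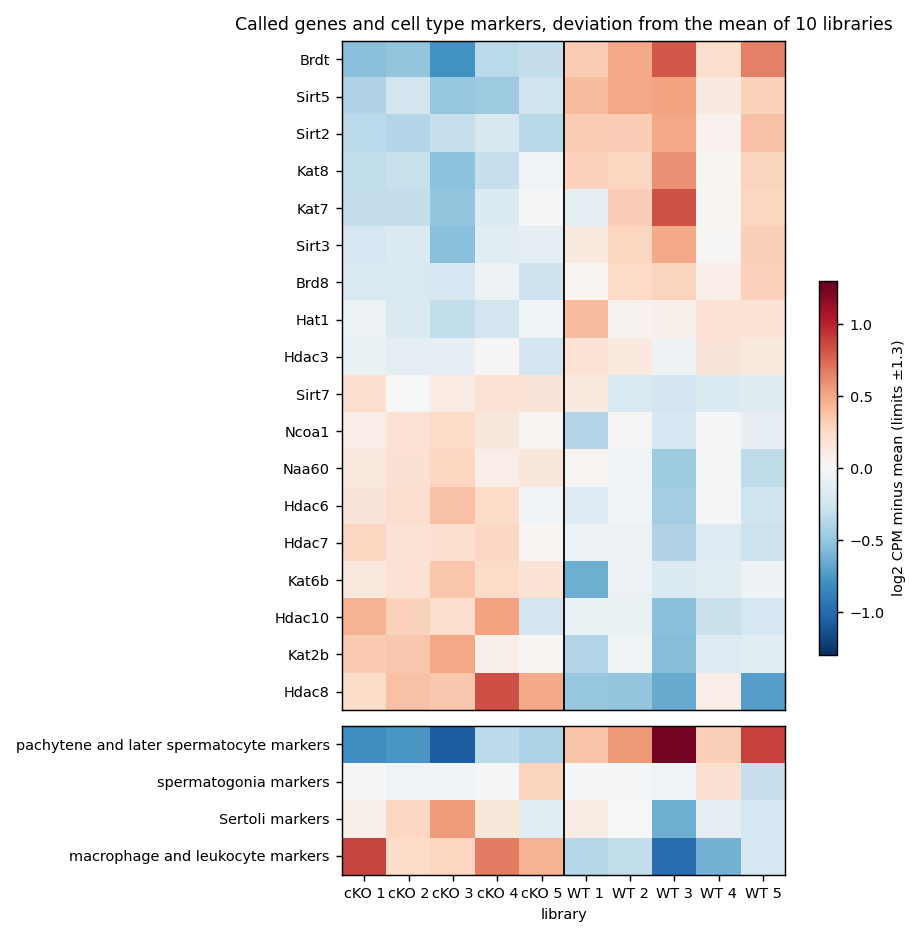
Log2 CPM of the 18 genes that passed (upper block) and mean log2 CPM of 4 cell type marker lists (lower block), each minus its mean over the 10 libraries; Ino80cKO 1 to 5 left of the line, Ino80WT 1 to 5 right of it. The pachytene marker row is lowest in Ino80cKO 3 and highest in Ino80WT 3, and the Sertoli marker row is the other way round.

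The genes that work with these proteins were described from lists of complex partners and related factors, whose counts are to be read beside the 18.3% of all tested genes called higher and the 27.6% called lower. Of 36 acetyltransferase complex partners 7 rose and 12 fell (19.4% and 33.3%, median log2 fold change -0.07). Tada1, a SAGA adaptor, fell to 28.9 ± 3.33 CPM in Ino80cKO, against 54.6 ± 3.09 CPM in Ino80WT (-0.91 ± 0.09, adjusted p = 3.91e-05). Taf9, shared by TFIID and SAGA, fell to 287 ± 36.3 CPM in Ino80cKO, against 551 ± 69.0 CPM in Ino80WT (-0.94 ± 0.11, adjusted p = 7.05e-05). Meaf6, a subunit of the MYST complexes, fell by 0.78 on the log2 scale (adjusted p = 0.000273). Of 31 deacetylase complex partners 7 rose and 9 fell (median 0.02). The SIN3 subunit Sap30 fell by 1.19 (adjusted p = 0.00031), the NCoR subunit Gps2 by 0.78 (adjusted p = 0.000263) and the SIN3 subunit Brms1 by 0.50 (adjusted p = 0.00316).

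Of 26 other bromodomain and YEATS readers 9 rose and 6 fell (median 0.06). Baz1a, an ISWI partner, fell to 174 ± 19.9 CPM in Ino80cKO, against 346 ± 77.6 CPM in Ino80WT (-0.99 ± 0.14, adjusted p = 0.000203). Zmynd11, which reads methylated H3.3, and Taf1, the largest TFIID subunit, rose by 0.41 (adjusted p = 0.00117) and 0.33 (adjusted p = 0.00156). Of 14 histone chaperones and carriers, 1 rose and 8 fell (median -0.25). The 3 with the smallest adjusted p belong to the NAP1 and nucleoplasmin families, known chiefly as carriers of H2A and H2B rather than H3 and H4: Nap1l1 fell by 0.59 (adjusted p = 0.000119), the oocyte chaperone Npm2 by 0.97 (adjusted p = 0.000319) and Npm3 by 0.55 (adjusted p = 0.00097). Of 17 genes of acetyl-CoA and NAD supply, 5 rose and 6 fell (median -0.02). Pdhb of the pyruvate dehydrogenase complex fell by 0.78 (adjusted p = 4.82e-05), its testis subunit Pdha2 by 1.10 (adjusted p = 0.000122) and the carnitine acetyltransferase Crat by 1.16 (adjusted p = 0.00176).

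Of 14 factors of histone replacement in spermatids, 7 had enough counts to be tested, and 5 of these fell and 1 rose. Phf7, a ubiquitin ligase, fell to 347 ± 78.6 CPM in Ino80cKO, against 1000.3 ± 237 CPM in Ino80WT (-1.53 ± 0.19, adjusted p = 9.69e-05). Zpbp, known as an acrosome protein rather than a histone factor, fell by 1.46 (adjusted p = 0.000158), and Cdyl, a chromodomain protein, rose by 0.36 (adjusted p = 0.00256). Rbbp4 and Rbbp7 each stood on a complex list and on the chaperone list. Some counts moved with single libraries. The rises among deacetylase partners were 4 without Ino80cKO 3, Ino80WT 3 or Ino80WT 5, and those among other readers were 5 without Ino80cKO 1, Ino80cKO 4 or Ino80WT 3. Without Ino80cKO 3 the falls were 3 among other readers and 3 in acetyl-CoA and NAD supply. Without Ino80WT 5 the rises in acetyl-CoA and NAD supply were 3. The single rise among the chaperones was lost without any one of Ino80cKO 1, 2 or 4 or Ino80WT 2, 3 or 5.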

How the data were processed

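The deposited files hold raw counts of reads per gene, 1 per library, made by the authors; per the submitters' processing notes the tools were HTSeq, TopHat2 and DESeq2 (no versions or roles stated) on mm10. No source states the annotation or whether counting used strand. Each file has 23420 gene rows and 5 rows without a gene, which held 35.5 to 44.0% of all its counts and were left out.

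Tests used edgeR 4.0.16 (R 4.3.3): filterByExpr (minimum count 10, minimum total 15), TMM scaling, and a robust quasi-likelihood fit with genotype as the only term over all 10 libraries and 15265 genes. Genes passed below an adjusted p of 0.05 (Benjamini-Hochberg). The model was run on simulated counts in which few genes changed, as many up as down. In these data 45.9% of tested genes were called, so that run does not check the scaling. CPM per kilobase used exon lengths of GENCODE M21. Alternatives were a replicate block, DESeq2 1.42.0, limma-voom (limma 3.58.1), other scalings and filters, and leaving out libraries.

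The members and lists were chosen with earlier results of these data known. Genes with a log2 fold change of at least 0.5 in size that passed, and Ep300, Crebbp, Hat1, Sirt1 and Ing2, are given per library; of each related list the 3 with the smallest adjusted p are named. Libraries were checked for duplicates by chi-square (at least 9.46 per degree of freedom for every pair). A gene of the set is not reported here; counts and medians still include it.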

Additional observations from a re-analysis of the deposited data

Results flagged for a closer look

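In 12 of 78 groups of 5 libraries, the highest or lowest library lay apart from the rest by Dixon's 95% limit for 5 values, 0.71 of the range; chance gives about 1 in 20. In Ino80WT 1, 5 of the 12 were found. That library was low for Ep300 (92.5 CPM), Kat6a (132 CPM) and Kat6b (69.1 CPM), all long transcripts, and high for Ing2 (45.6 CPM) and Sirt7 (40.5 CPM). Its share of Rn45s counts, 7.08%, was the highest of the 10 libraries; the part of this in the values was not tested.

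Ino80WT 3 was high for Brd2 (685 CPM) and low for Hdac3 (116 CPM). Ino80WT 2 was low for Ing3 (25.2 CPM), and Ino80WT 4 was high for Hdac8 (1.97 CPM). Among the Ino80cKO libraries, Ino80cKO 3 was high for Brd3 (188 CPM) and low for Sirt3 (22.6 CPM), and Ino80cKO 1 was low for Ing2 (34.7 CPM).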

How the results depend on the processing

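Of the 18 genes called, 14 passed with the same sign under all 20 alternatives and 4 did not under some: Hdac3 (8 alternatives), Naa60 (3), Sirt7 (2) and Hat1 (1); the causes were not tested. No called gene reversed. Of the 21 genes not called, 12 passed under some alternative, in part with library totals alone. With all libraries and TMM, 9 members were higher, 9 lower and the median log2 fold change was 0.08. DESeq2 called 14 higher and 9 lower. Library totals gave 21 higher, 7 lower and a median of 0.26, with 5484 genes higher over all tested genes against 2793 with TMM; the median of all genes moved by the scaling itself. Leaving out 1 library gave 8 to 13 members higher, 8 to 9 lower and medians of 0.064 to 0.14, the highest without Ino80WT 3; without that library and Ino80cKO 3 the median was 0.15.

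The labels do not say that equal replicate numbers pair libraries: the same-number correlations of deviations ran from -0.47 to 0.20, 2 of 5 were over 0.1, and 1 Ino80cKO library correlated best with its own number. With the replicate block 9 members were higher and 8 lower, against 9 and 9, the median was 0.09, and 1921 genes were higher and 3572 lower over all tested genes. Hdac8, at the lowest CPM of the set, also had the largest SE of a log2 fold change, 0.20.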
